A study of Mus musculus with 7 samples.

Results

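Lysosomal protease and hydrolase genes were examined in SiglecF+ cells sorted from mouse muscle as eosinophils. The set had 33 members, chosen by name as cathepsins, lysosomal hydrolases and cofactors, membrane proteins and regulators, of 24421 genes in the count table. All 33 were found and all 33 passed the filter on low counts, which left 12428 genes for testing. The fewest reads of any member in any library was 78, for Ctns in WT replicate 3, a library whose most common nonzero count was 13.

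The comparison was between 4 libraries labelled IL5-Tg and 3 labelled WT. Eosinophils depend on the cytokine IL-5 to mature and to survive. All libraries came from muscle taken 3 days after ntx, a term the labels leave unexplained. The cells were CD45+ and SiglecF+, with intermediate CD11b as far as the label can be read, and negative for NK1, Ly6G and CD3e. The labels give no age, no promoter for the transgene and no mdx allele for either group, although the series title names mdx mice. They also do not say whether each library came from a separate mouse, so p-values measure the spread between libraries, which may be technical.

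Lysosomes are acidic organelles in which proteases, glycosidases and lipid hydrolases break down material delivered by endocytosis, phagocytosis and autophagy. Most soluble lysosomal enzymes receive a mannose 6-phosphate tag in the Golgi, which receptors recognise, and many cathepsins are made as inactive precursors that are cleaved at low pH. The transcription factors Tfeb and Tfe3 drive many of these genes through a promoter element whose core letters are CACGTG. In eosinophils the specific granules share membrane proteins with lysosomes, and surface Cd63 is used as a sign of granule release.

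Gene reads numbered 9665093 to 17447106 per library. The most common nonzero count of a gene was 1, 2, 1 and 4 in IL5-Tg replicates 1 to 4, against 5, 10 and 13 in WT replicates 1 to 3. It was thus higher in every WT library, and this difference cannot be told apart from genotype. Genes detected numbered 14053, 13641, 14391 and 14369 in IL5-Tg replicates 1 to 4, and 13813, 12759 and 10877 in WT replicates 1 to 3. Il5 itself stood at 338 to 447 CPM (read counts scaled to TMM-adjusted library size) in IL5-Tg libraries and at 0 to 1.39 CPM in WT libraries. WT replicate 3 stood apart in fibroblast RNA. Its 9 fibroblast markers summed to 16.5 CPM, against 2009 to 4897 CPM in IL5-Tg libraries and 2988 and 3356 CPM in WT replicates 1 and 2. Of 8 neutrophil markers tested, 2 had a positive and 6 a negative log2 fold change. Ngp was called higher in IL5-Tg (28.3 ± 3.52 CPM in IL5-Tg and 0.121 ± 0.209 CPM in WT libraries). Retnlg was called lower (3235 ± 763 CPM in IL5-Tg and 9663 ± 742 CPM in WT libraries, SD, n = 4 and 3). At an unadjusted edgeR p under 0.05 stood 1 positive marker, Ngp, against 3.49% of all tested genes. On the negative side stood 4, S100a8, S100a9, Retnlg and Csf3r, against 5.54%. The groups of S100a8 and S100a9 overlapped. The summed markers of mast cells and basophils ran from 60.6 to 82.7 CPM in IL5-Tg and from 221 to 503 CPM in WT libraries, with Hdc called lower. Those of muscle fibres ran from 440 to 1354 CPM in IL5-Tg and from 143 to 421 CPM in WT libraries, with 0 of 10 called. The part of these cells in the values of lysosomal genes was not tested. The eosinophil genes Siglecf and Ccr3 were present in every library. Of 12 eosinophil markers, 3 were called higher in IL5-Tg and 0 lower. By log2 fold change, 9 were positive and 3 negative. The negative ones were Il5ra (-0.97), Ccr3 (-0.59) and Cd300a (-0.29), without passing. Il5ra was at 66.7 ± 18.3 CPM in IL5-Tg and 130 ± 48.9 CPM in WT libraries (SD, n = 4 and 3), with overlapping groups. The granule gene Prg2, which encodes major basic protein, was called higher, at 815 ± 319.6 CPM in IL5-Tg and 120 ± 21.2 CPM in WT libraries, as were the ribonuclease genes Ear1 and Ear6, and Epx was at 23.6 ± 7.02 CPM in IL5-Tg and 7.84 ± 6.55 CPM in WT libraries without passing (SD, n = 4 and 3). In such bulk samples, fewer cells of a type and less RNA per cell cannot be told apart.

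Promoter sequence is shown for the members that carry the Tfeb and Tfe3 core letters most clearly. RefSeq promoters (GRCm38.p6, 250 bases before to 50 after each start) were matched for 29 of the 33 members. A gene was counted if any of its promoters matched. Of these 29, 8 held CACGTG (27.6%), namely Ctsl, Lgmn, Ctsd, Ctsa, Gaa, Glb1, Lamp1 and Mcoln1, against 11.8% of 9502 tested genes with a promoter. By promoter the shares were 22.2% of 36 and 9.85% of 12127. Ctsa and Lgmn each also had a promoter without a match. For the matching promoters of Ctsa, Lgmn and Ctsl, the first 25 bases from the start stood in no GENCODE transcript of the gene. They did for 26 of the 36 member promoters. The longer form TCACGTGA, which contains the shorter one, was held by Ctsa, Ctsd and Mcoln1 (10.3%), against 2.17% of the tested genes. Both letter strings read the same on both strands, and a match describes the letters, not a bound site. The stretches below are on the strand of the gene, with every match within them in capitals. Lamp1 is added because it held 4 matches within 1 stretch. Ctsd held a further CACGTG that is not shown, 245 bases before the start site.
Ctsa, chr2:164833741-164833803, plus strand: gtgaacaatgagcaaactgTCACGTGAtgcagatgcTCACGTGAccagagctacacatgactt
Ctsd, chr7:142387900-142387945, minus strand: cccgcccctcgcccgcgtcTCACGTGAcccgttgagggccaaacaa
Mcoln1, chr8:3500428-3500499, plus strand: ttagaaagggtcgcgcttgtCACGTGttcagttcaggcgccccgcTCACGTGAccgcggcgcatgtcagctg
Lamp1, chr8:13159080-13159171, plus strand: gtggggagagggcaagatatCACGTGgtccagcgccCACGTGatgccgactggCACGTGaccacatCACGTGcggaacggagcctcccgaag

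Lysosomal genes took a sizeable part of these transcriptomes. The members held 3.49%, 2.99%, 3.70% and 3.43% of gene reads in IL5-Tg replicates 1 to 4, and 2.67%, 3.51% and 2.19% in WT replicates 1 to 3. The group means were 3.40% ± 0.295 (SD, n = 4) in IL5-Tg and 2.79% ± 0.668 (SD, n = 3) in WT libraries, and the ranges overlapped through WT replicate 2. Per kilobase of exon, Ctsd ranked 10th and Psap 17th of 11973 tested genes with a known length, followed among the members by Laptm5 (42nd), Ctsb (89th), Ctss (93rd) and Ctsz (98th). By the same measure 15 of the 33 members lay above the 95th percentile. At the low end stood the membrane proteins Ctns and Mcoln1, at means of 3.96 and 3.69 CPM per kilobase over all libraries, against 2424 CPM per kilobase for Ctsd.

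**Figure D1:**
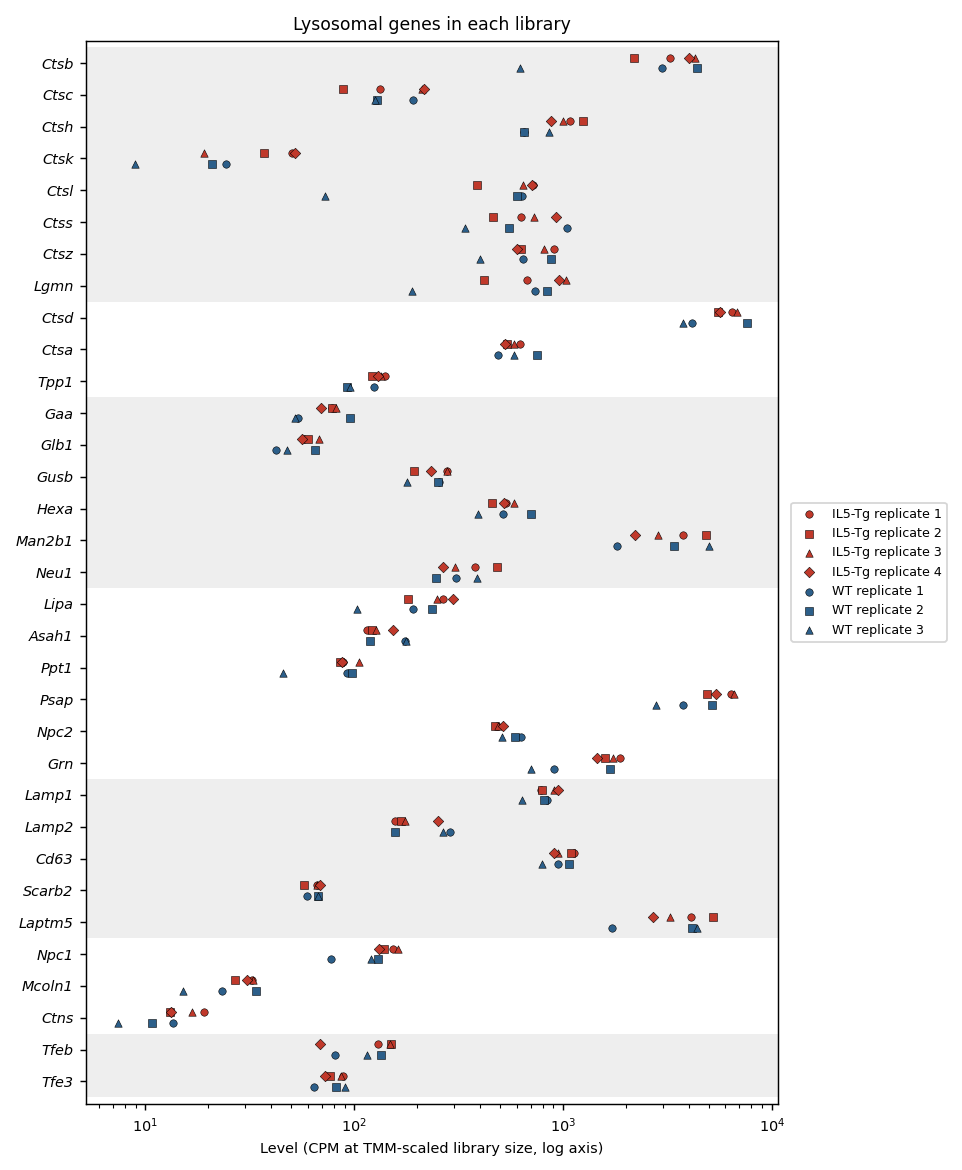
Level of each of the 33 lysosomal genes in every library, in CPM on a log axis, with IL5-Tg replicates in red above WT replicates in blue and 1 marker shape per replicate number. Grey and white bands separate the role groups, and WT replicate 3 (blue triangle) lies far left of the other libraries for Ctsb, Ctsl and Lgmn.

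The comparison asked whether the RNA levels of these genes differed between IL5-Tg and WT libraries. No member passed the test in either direction (0 of 33 by edgeR's quasi-likelihood test with Benjamini-Hochberg adjustment over all genes, smallest adjusted p = 0.468), while 51 of all 12428 genes did, or 0.41% (0.338% higher and 0.0724% lower in IL5-Tg). By DESeq2 the count of members was also 0, with a smallest adjusted p of 0.289. At an unadjusted p under 0.05 stood 2 members, Ctsk and Ctsh, both with positive log2 fold changes, against 9.04% of all tested genes in either direction (3.49% higher and 5.54% lower in IL5-Tg). The log2 fold change was above 0 for 27 members and below 0 for 6, against 52.1% of all tested genes above 0. The members' median was 0.20, against 0.03 over all tested genes, and without WT replicate 3 it was 0.07 with 22 members above 0. For 23 of 33 members the 95% interval lay wholly within a 2-fold change in either direction, as it did for 29.3% of all tested genes. The other 10 were Ctsb, Ctsh, Ctsk, Ctsl, Lgmn, Lipa, Psap, Grn, Mcoln1 and Ctns. All 33 intervals excluded a 2-fold lower level in IL5-Tg, as did those of 6147 of all 12428 tested genes. Members also had smaller errors, with a median SE of 0.29 against 0.40 over all tested genes. A gene that did not pass is not shown to be unchanged.

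**Figure D2:**
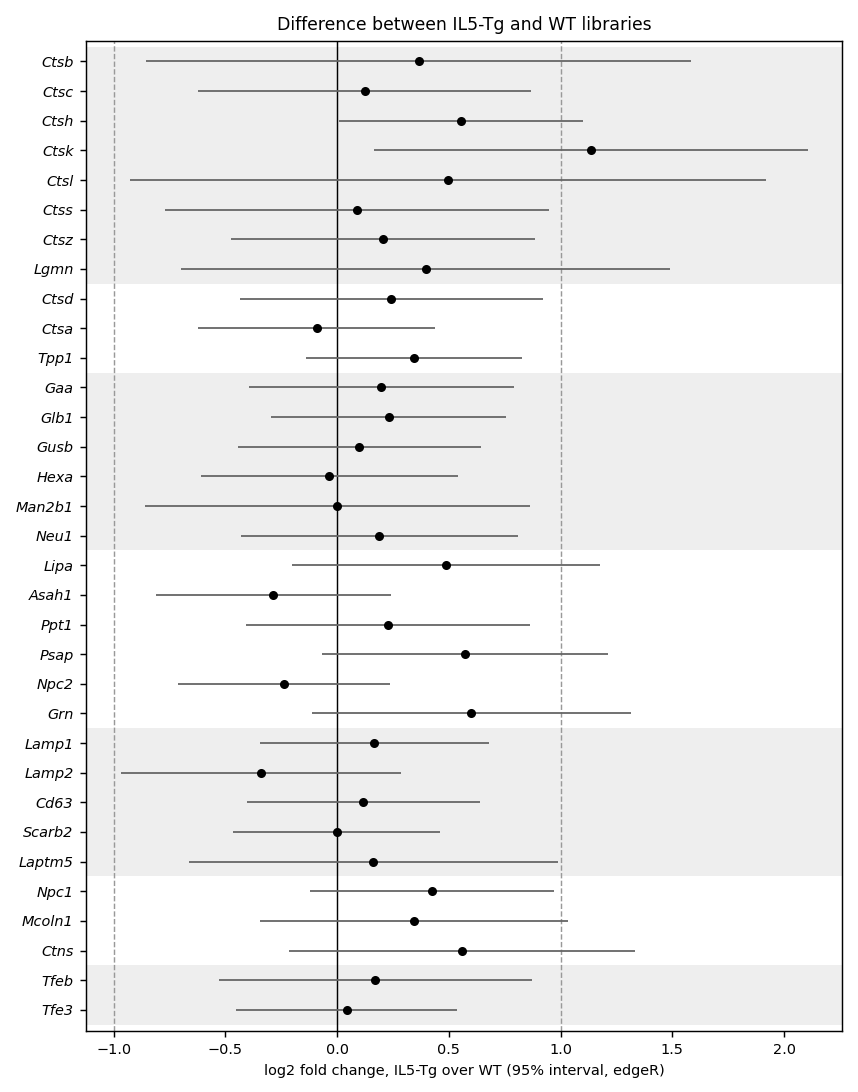
The log2 fold change of each lysosomal gene, IL5-Tg over WT, with its 95% interval from edgeR, and dashed lines at a 2-fold change in either direction. Points run from -0.34 for Lamp2 to 1.14 for Ctsk, with the widest intervals for Ctsl and Ctsb.

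The cysteine cathepsins and legumain had 8 members, of which 0 passed the test, with log2 fold changes of 0.09 to 1.14. Ctsk, a collagen-degrading cathepsin best known from osteoclasts (chr3:95499256-95509362, plus strand, GRCm38), had 50.4, 36.8, 19.1 and 51.9 CPM in IL5-Tg replicates 1 to 4 and 24.2, 20.8 and 8.88 CPM in WT replicates 1 to 3. The groups overlapped only because IL5-Tg replicate 3 lay below WT replicates 1 and 2. Its log2 fold change of 1.14 ± 0.44 (SE) was the largest of the members but did not pass (edgeR adjusted p = 0.468), and WT replicate 3 held 94 reads of it, in a library whose most common count was 13. Fibroblast markers, which were low in that library, moved with Ctsk there, and their part in its value was not tested. With libraries blocked by how their titles begin, which leaves the comparison to 2 libraries of each genotype, the value was 0.49 (edgeR adjusted p = 0.999).

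Ctsh, which acts mainly as an aminopeptidase (chr9:90054152-90076089, plus strand), had 1083, 1254, 996 and 879 CPM in IL5-Tg replicates 1 to 4, against 650, 648 and 854 CPM in WT replicates 1 to 3. The groups did not overlap, though IL5-Tg replicate 4 and WT replicate 3 lay close together. The log2 fold change was 0.55 ± 0.25 (SE, 95% interval 0.01 to 1.10, edgeR adjusted p = 0.544). It was 0.46 to 0.72 over the alternative settings in which 1 library was left out. Ctsh and Npc1 were the 2 members whose IL5-Tg values all lay above all WT values, against 4.76% of all tested genes, and no member had the opposite order, against 4.6% of all tested genes.

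Lgmn, the asparaginyl endopeptidase that processes other cathepsins, had 674, 421, 1037 and 959 CPM in IL5-Tg replicates 1 to 4 and 733, 838 and 190 CPM in WT replicates 1 to 3. WT replicate 3 was the lowest and IL5-Tg replicate 2 the next lowest library. Its log2 difference, 0.40 ± 0.49 (SE; edgeR adjusted p = 0.906), became -0.01 without WT replicate 3. The general endopeptidases Ctsb and Ctsl were chosen for full values after these had been seen, since they varied most among libraries. Ctsb had 3270, 2185, 4305 and 4004 CPM in IL5-Tg replicates 1 to 4 and 2989, 4399 and 624 CPM in WT replicates 1 to 3. Ctsl had 718, 386, 645 and 709 CPM in IL5-Tg replicates 1 to 4 and 635, 600 and 72.2 CPM in WT replicates 1 to 3. In both genes WT replicate 3 alone lay far below every other library, and the log2 fold changes of 0.37 ± 0.54 and 0.50 ± 0.62 (SE) were -0.09 and 0.01 without it. The remaining cysteine proteases were Ctsc, which activates granule serine proteases in other leukocytes, Ctss, which processes the invariant chain for antigen presentation, and the carboxypeptidase Ctsz. Their log2 fold changes were 0.12, 0.09 and 0.20, each with overlapping groups.

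Among the aspartic and serine proteases, 0 of 3 members passed. Ctsd, the main aspartic protease of lysosomes, had 6425, 5515, 6839 and 5629 CPM in IL5-Tg replicates 1 to 4, against 4154, 7588 and 3744 CPM in WT replicates 1 to 3. The IL5-Tg values lay within the WT range, and the log2 fold change was 0.24 ± 0.31 (SE; edgeR adjusted p = 0.907), with 0.07 without WT replicate 3 and 0.65 without WT replicate 2. Tpp1, an aminopeptidase that removes tripeptides, had 141, 122, 135 and 130 CPM in IL5-Tg replicates 1 to 4 and 125, 92.1 and 95.6 CPM in WT replicates 1 to 3. Only IL5-Tg replicate 2 fell below WT replicate 1, and the log2 fold change was 0.34 ± 0.22 (SE; edgeR adjusted p = 0.746). Ctsa, a carboxypeptidase that also protects Neu1 and Glb1 from degradation, had 626, 541, 586 and 527 CPM in IL5-Tg replicates 1 to 4 and 487, 754 and 582 CPM in WT replicates 1 to 3. All IL5-Tg values again lay within the WT range (log2 fold change -0.09 ± 0.24, SE).

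The glycosidases remove sugars from glycoproteins, glycolipids and glycogen, and 0 of 6 passed. Glb1, the lysosomal beta-galactosidase, had 57.5, 60.1, 68.1 and 56.4 CPM in IL5-Tg replicates 1 to 4, against 42.3, 64.8 and 47.7 CPM in WT replicates 1 to 3. Gaa, the glucosidase that degrades glycogen, had 78.2, 78.7, 82.0 and 69.1 CPM in IL5-Tg replicates 1 to 4, against 53.6, 95.6 and 52.3 CPM in WT replicates 1 to 3. In both genes WT replicate 2 reached or passed most IL5-Tg libraries, and the log2 fold changes were 0.23 ± 0.24 and 0.20 ± 0.27 (SE). The sialidase Neu1 had 380, 481, 304 and 267 CPM in IL5-Tg replicates 1 to 4 and 309, 246 and 388 CPM in WT replicates 1 to 3, with overlapping groups and a log2 fold change of 0.19 ± 0.28 (SE). The alpha-mannosidase gene Man2b1, given in full after its values had been seen, had 3768, 4840, 2849 and 2217 CPM in IL5-Tg replicates 1 to 4 and 1807, 3407 and 5036 CPM in WT replicates 1 to 3. It thus spanned nearly the same range in both groups, with WT replicate 3 highest. Its log2 fold change was 0.00096 ± 0.39 (SE), with a 95% interval of -0.86 to 0.86. For Hexa and Gusb, which act on gangliosides and glucuronides, it was -0.04 and 0.10.

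The lipid hydrolases and soluble cofactors included Grn and Psap, and 0 of 6 passed. Psap, the precursor of the saposins that present lipids to hydrolases (chr10:60277627-60302597, plus strand), had 6407, 4884, 6570 and 5404 CPM in IL5-Tg replicates 1 to 4, against 3781, 5158 and 2782 CPM in WT replicates 1 to 3. Only WT replicate 2 exceeded an IL5-Tg library. The difference of 0.57 ± 0.29 (SE) on the log2 scale had an edgeR adjusted p of 0.634. Grn, which encodes the growth factor-like protein progranulin (chr11:102430315-102437048, plus strand), had 1880, 1592, 1731 and 1461 CPM in IL5-Tg replicates 1 to 4, against 911, 1681 and 702 CPM in WT replicates 1 to 3. Again WT replicate 2 alone lay within the IL5-Tg range. Its log2 fold change was 0.60 ± 0.32 (SE; edgeR adjusted p = 0.658), 1.07 without WT replicate 2 (edgeR adjusted p = 0.108) and 0.38 without WT replicate 3.

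Lipa, the acid lipase that frees cholesterol from its esters, had 265, 182, 250 and 296 CPM in IL5-Tg replicates 1 to 4 and 192, 236 and 104 CPM in WT replicates 1 to 3. WT replicate 3 was the lowest library. The log2 fold change was 0.49 ± 0.31 (SE; edgeR adjusted p = 0.746), with 0.23 without WT replicate 3 and 0.78 without WT replicate 2. Ppt1, which removes fatty acids from palmitoylated proteins, had a log2 fold change of 0.23. Asah1, the acid ceramidase, and Npc2, which hands cholesterol to Npc1, were among the 6 members with a negative log2 fold change, at -0.29 and -0.24.

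Of the lysosomal membrane proteins, 0 of 5 passed. Lamp1, a heavily glycosylated coat protein of the lysosomal membrane, had 787, 795, 903 and 945 CPM in IL5-Tg replicates 1 to 4 and 841, 812 and 639 CPM in WT replicates 1 to 3. Lamp2, its relative with a role in autophagy, had 157, 167, 175 and 251 CPM in IL5-Tg replicates 1 to 4 and 288, 158 and 268 CPM in WT replicates 1 to 3. Lamp1 and Lamp2 had log2 fold changes of 0.17 ± 0.23 and -0.34 ± 0.28 (SE), and WT replicate 2 kept the groups of Lamp2 from separating. Cd63, the tetraspanin of granule and lysosomal membranes, had 1129, 1088, 951 and 906 CPM in IL5-Tg replicates 1 to 4 and 949, 1074 and 794 CPM in WT replicates 1 to 3, with a log2 fold change of 0.12 ± 0.23 (SE). Scarb2, the receptor that carries glucocerebrosidase to lysosomes, was the most even member, at 57.5 to 68.6 CPM in IL5-Tg and 59.6 to 67.4 CPM in WT libraries, and its interval ran from -0.46 to 0.46 on the log2 scale. Laptm5, a membrane protein of blood cells, had 4125, 5252, 3253 and 2693 CPM in IL5-Tg replicates 1 to 4 and 1721, 4160 and 4387 CPM in WT replicates 1 to 3. Its range within either group was wider than the difference between their means (log2 fold change 0.16 ± 0.37, SE).

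The membrane transporters and channels had 3 members, of which 0 passed and 3 had a positive log2 fold change. Npc1, which exports cholesterol from the lysosome, had 154, 138, 163 and 132 CPM in IL5-Tg replicates 1 to 4, against 77.8, 130 and 121 CPM in WT replicates 1 to 3. The groups did not overlap, but IL5-Tg replicate 4 and WT replicate 2 nearly met, and the log2 fold change was 0.42 ± 0.25 (SE; edgeR adjusted p = 0.711). Ctns, the cystine transporter, had 19.1, 13.1, 16.8 and 13.3 CPM in IL5-Tg replicates 1 to 4 and 13.5, 10.8 and 7.37 CPM in WT replicates 1 to 3 (log2 fold change 0.56 ± 0.35, SE). Mcoln1, a cation channel that releases calcium from lysosomes, had 32.3, 26.8, 32.9 and 30.6 CPM in IL5-Tg replicates 1 to 4 and 23.3, 34.0 and 15.2 CPM in WT replicates 1 to 3 (log2 fold change 0.34 ± 0.31, SE).

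The regulators were present at moderate levels and 0 of 2 passed. Tfeb had 130, 151, 148 and 68.5 CPM in IL5-Tg replicates 1 to 4 and 80.6, 135 and 115 CPM in WT replicates 1 to 3. IL5-Tg replicate 4 was the lowest of all libraries, and the log2 fold change was 0.17 ± 0.31 (SE; edgeR adjusted p = 0.936). Tfe3 had 88.0, 76.7, 86.4 and 72.7 CPM in IL5-Tg replicates 1 to 4 and 64.2, 81.8 and 90.0 CPM in WT replicates 1 to 3, with a log2 difference of 0.04 ± 0.22 (SE; edgeR adjusted p = 0.976). The 8 members with CACGTG in any promoter had log2 fold changes of -0.09 to 0.50 with a median of 0.24. The 21 with a promoter and no match had -0.34 to 1.14 with a median of 0.16.

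Members also differed between libraries of 1 genotype. In WT replicate 3, 7 of 33 members stood under 0.5 times the mean of WT replicates 1 and 2 (ratios of CPM + 1), or 21.2%, against 26.5% of all tested genes, so the share was no larger among the members. These were Ctsl at 0.118, Ctsb at 0.169, Lgmn at 0.243, Ctsk at 0.420, Ctss at 0.423, Ppt1 at 0.484 and Lipa at 0.487. No member stood above 2 times that mean, against 6.20% of all tested genes. WT replicate 3 was the lowest of the 7 libraries for 18 of 33 members, against 35.1% of all tested genes. Man2b1 went the other way, at 1.93 times the mean of the other WT libraries, followed by Laptm5 at 1.49 and Neu1 at 1.40.

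After the values had been seen, IL5-Tg replicate 2 was set against the mean of the other IL5-Tg libraries. There the same 7 genes stood at 0.474 to 0.912 times that mean, and Man2b1, Laptm5 and Neu1 at 1.64, 1.56 and 1.52 times. All 7 were thus below it, as were 2846 of the 3295 tested genes under 0.5 times in WT replicate 3. Both libraries were below the others of their group for 21 of 33 members, and above them for 5, Ctsh, Man2b1, Neu1, Laptm5 and Tfeb. Over all tested genes these shares were 41.7% and 28.4%. The ratio of Man2b1 to Ctsb CPM, not corrected for length and so comparable only between libraries, was 2.22 in IL5-Tg replicate 2 and 0.554 to 1.15 in the other IL5-Tg libraries, against 8.07 in WT replicate 3 and 0.604 and 0.774 in WT replicates 1 and 2.

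**Figure D3:**
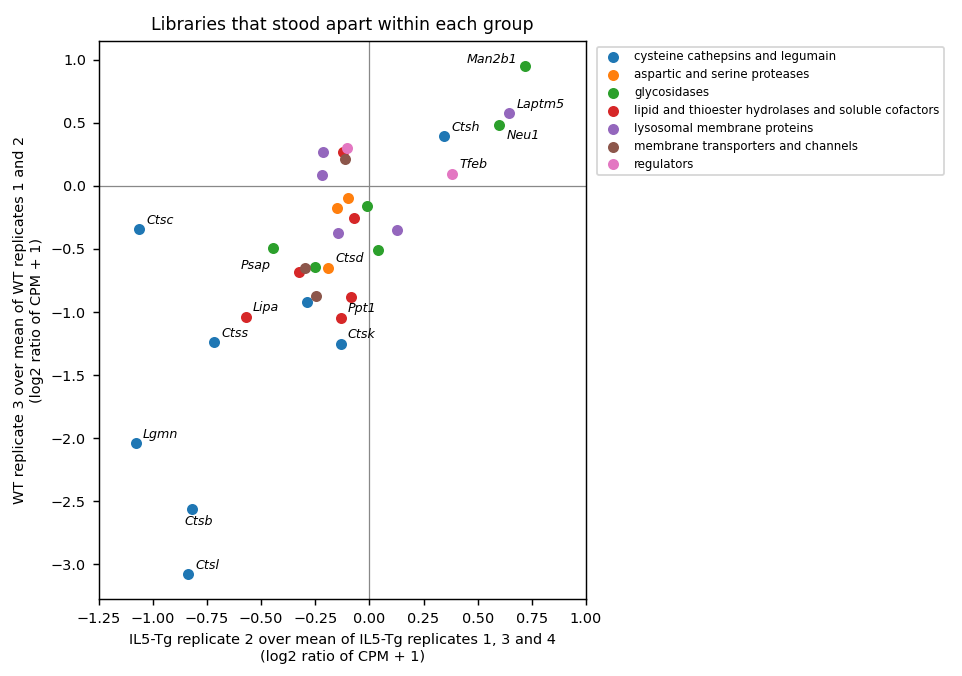
Each point is a lysosomal gene, with IL5-Tg replicate 2 over the mean of the other IL5-Tg libraries on the horizontal axis and WT replicate 3 over the mean of the other WT libraries on the vertical axis (log2 ratios of CPM + 1), coloured by role. Ctsl, Ctsb and Lgmn lie at the lower left, and Man2b1, Laptm5 and Neu1 at the upper right.

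Macrophage marker values are given beside these patterns. All 12 macrophage and monocyte markers were measured and none was at 0 in any library. They summed to 4606 to 5614 CPM in IL5-Tg and 3735 to 5010 CPM in WT libraries, a sum in which Adgre1 weighs most. By the mean log2(CPM + 1) of the 12 genes, which weights them equally, the levels were 7.57, 7.04, 7.96 and 7.90 in IL5-Tg replicates 1 to 4 and 7.63, 7.85 and 6.45 in WT replicates 1 to 3. WT replicate 3 thus stood lowest, and it was the lowest library for 6 of the 12 genes, against 35.1% of all tested genes. The complement gene C1qa had 585, 350, 776 and 602 CPM in IL5-Tg replicates 1 to 4 and 374, 674 and 68.4 CPM in WT replicates 1 to 3. WT replicate 3 was lowest and IL5-Tg replicate 2 next, as for Ctsb and Lgmn. Not all markers had this order: Csf1r was highest in IL5-Tg replicate 2, at 1035 CPM. It was lowest in WT replicate 1, at 438 CPM, with 785 CPM in WT replicate 3. Adgre1 (F4/80), which eosinophils of the mouse also express, had 1697, 2236, 1591 and 1556 CPM in IL5-Tg replicates 1 to 4 and 1287, 1416 and 2459 CPM in WT replicates 1 to 3, with the highest values in the same 2 libraries as Man2b1. The 12 eosinophil markers summed to 7591, 9924, 7440 and 5288 CPM in IL5-Tg replicates 1 to 4 and 4745, 3886 and 7565 CPM in WT replicates 1 to 3. In that sum Alox15 weighs most. Their mean log2(CPM + 1) was 7.079, 7.458, 7.081 and 6.525 in IL5-Tg replicates 1 to 4, and 5.997, 5.758 and 6.305 in WT replicates 1 to 3. By that measure the groups did not overlap. Of the 12 genes, 9 had a positive and 3 a negative log2 fold change. With the mean macrophage marker level as a covariate, 0 of 33 members were called, the median log2 fold change was 0.14 and 24 members were above 0. The part of other cells' RNA in the level of any 1 member was not tested.

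**Figure D4:**
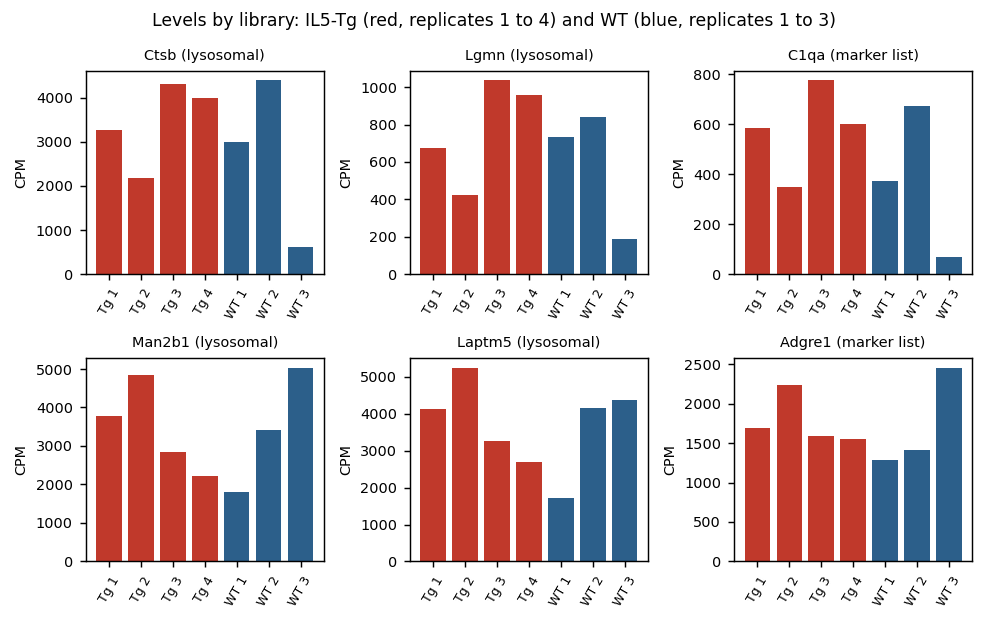
CPM in each library, IL5-Tg (red) left of WT (blue), for Ctsb, Lgmn, Man2b1 and Laptm5 and for the macrophage list genes C1qa and Adgre1. Ctsb, Lgmn and C1qa are lowest in WT replicate 3, where Man2b1 and Adgre1 are highest.

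The rest of the lysosomal system, given by 7 lists of other genes, had no called gene in either direction among 123 tested, where 0.41% of all tested genes were called. Of the other lysosomal hydrolases, 31 were tested, with a median log2 fold change of 0.25, and 7 had an unadjusted p under 0.05, all positive, against 3.49% of all tested genes with such a p and a positive value. The smallest p belonged to Arsb, the arylsulfatase that acts on dermatan sulfate, with 121, 135, 106 and 102 CPM in IL5-Tg replicates 1 to 4 against 40.1, 49.2 and 68.9 CPM in WT replicates 1 to 3. Its groups did not overlap, with IL5-Tg higher, as for 4.76% of all tested genes. The log2 fold change of 1.14 ± 0.26 (SE) had an edgeR adjusted p of 0.135. Pla2g15, the lysosomal phospholipase A2, was at 0.95 ± 0.28 (SE; edgeR adjusted p = 0.307).

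Endogenous cathepsin inhibitors passed the count filter for 7 of 14 genes, and of these Cst7 had the smallest p. Cst7 encodes cystatin F, an inhibitor of cathepsins in leukocytes. It averaged 138 ± 25.4 CPM (SD, n = 4) in IL5-Tg and 83.2 ± 13.6 CPM (SD, n = 3) in WT libraries, with an edgeR adjusted p of 0.381. The groups did not overlap, with IL5-Tg higher, as for 4.76% of all tested genes. The next was Serpina3g, at a log2 fold change of 1.25 ± 0.75 (SE) with at most 6.28 CPM in any library. The 21 other membrane proteins had a median of 0.21, with the smallest p for the cation channel Tpcn2 (0.75) and the acetyltransferase Hgsnat (0.52).

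The 17 subunits and accessory proteins of the V-ATPase, the proton pump that acidifies lysosomes, had a median log2 fold change of -0.05. Atp6v1a was at 0.56 and Atp6ap2 at -0.53, and neither passed. The 12 genes of mannose 6-phosphate tagging and sorting had a median of 0.17, with Gnptg, a subunit of the tagging enzyme, at -0.42 and Nagpa, which uncovers the tag, at 0.41. In the list of nutrient sensing and related regulators, 15 were tested with a median of -0.04. Flcn, which controls the nuclear entry of Tfeb and Tfe3, was at -0.55 (edgeR adjusted p = 0.584). Its IL5-Tg values all lay below the WT values, as for 4.6% of all tested genes. The groups nearly met, at 28.35 CPM in IL5-Tg replicate 3 and 29.78 CPM in WT replicate 2. The 20 autophagy genes had a median of -0.05, with Wipi1 at 0.58 and Atg3 at -0.66.

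**Figure D5:**
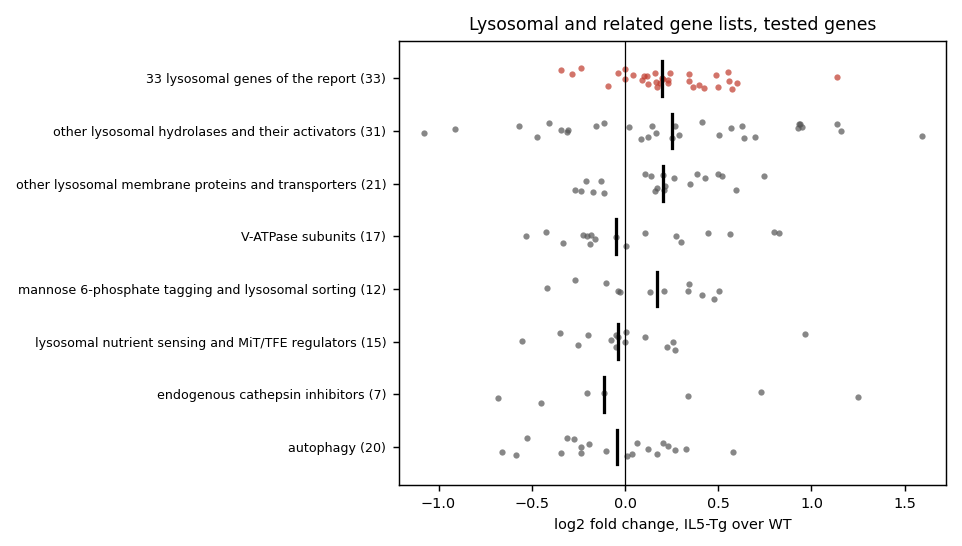
The log2 fold change, IL5-Tg over WT, of the tested genes of the 33 lysosomal genes (red) and 7 lists of related genes (grey), with the median of each as a black bar and the number of tested genes in brackets. Medians lie between -0.11 for cathepsin inhibitors and 0.25 for the other lysosomal hydrolases.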

How the data were processed

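RNA from SiglecF+ cells sorted from muscle was sequenced in 4 IL5-Tg and 3 WT libraries. The authors deposited 1 raw count per gene symbol and library. Libraries were stranded and paired, per the labels' protocols. The submitters' processing notes name bcl2fastq 2.20, Bowtie, STAR and mm10. Which program counted reads, and its strand setting, is not given in the sources used here. Overlapping genes may therefore share reads. Reads in no_feature (9.15% to 18.2%) and ambiguous (0.75% to 0.943%) were left out of totals of 11581365 to 20231509. Chi-square between replicates was at least 26 per gene, so all 7 libraries were kept as separate samples.

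The test was edgeR 4.0.16 (quasi-likelihood, TMM, filterByExpr, robust) in R 4.3.3, with Benjamini-Hochberg adjustment over 12428 genes and a threshold of 0.05, tested on simulated data. SE is the log2 fold change over the root of F. Lengths and gene positions are from GENCODE vM21 (GRCm38, merged exons). Alternatives were DESeq2 1.42.0, limma 3.58.1 voom, other scalings and filters, thinning, covariates and leaving out each library. Members and lists were chosen with earlier results of these data known. Values per library are given for called members, the 3 with the smallest p per role, the 3 with the highest CPM and both regulators, and of other lists the 2 genes with the smallest p where none was called.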

Additional observations from a re-analysis of the deposited data

Results flagged for a closer look

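Among the 33 lysosomal genes, 1 had an IL5-Tg library far from the other 3 of its group. Ppt1 stood at 106 CPM in IL5-Tg replicate 3, against 88.5, 85.7 and 87.5 CPM in IL5-Tg replicates 1, 2 and 4, and 92.3, 97.7 and 45.5 CPM in WT replicates 1 to 3. The gap to the nearest library, as a share of the group's range, was above Dixon's critical value for 4 samples, which chance passes in about 1 of 20 groups. The WT group of 3 libraries was not examined in this way.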

How the results depend on the processing

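No lysosomal gene was called under any of the 17 alternatives, and the smallest adjusted p of a member ran from 0.108 to 0.999. Leaving out 1 library moved the members' median log2 fold change between 0.0701 (without WT replicate 3) and 0.365 (without WT replicate 2), and the number of all genes called between 16 and 97. That number was 51 in the main test, 225 by DESeq2, 32 by limma-voom and 97 with the macrophage marker level as a covariate; the cause was not tested. Of 561 values of single members, 37 changed sign, in 15 members. Scarb2 did so at 0.0119 with RLE, 0.0219 with upper-quartile scaling, 0.0124 by DESeq2, 0.0338 by limma-voom, 0.0151 with no filter and 0.0909 with titles as a block. Ctss was at -0.0223 by limma-voom, and Man2b1 at -0.0296 with a stricter filter and -0.00493 after thinning. The macrophage covariate gave Ctsc -0.129, Ctss -0.145 and Gusb -0.0132. The title block gave Ctsz -0.102, Cd63 -0.122 and Tfeb -0.05. The ranges of log2 fold change with 1 library left out were Ctsa -0.222 to 0.115, Ctsb -0.0878 to 0.967, Ctsc -0.0509 to 0.348, Ctss -0.191 to 0.638, Ctsz -0.0242 to 0.525, Gusb -0.0262 to 0.203, Hexa -0.202 to 0.237, Laptm5 -0.151 to 0.397, Lgmn -0.00648 to 0.778, Man2b1 -0.297 to 0.41, Ppt1 -0.0245 to 0.448, Scarb2 -0.0519 to 0.0507, Tfe3 -0.0793 to 0.169, Tfeb -0.00476 to 0.367. The other members kept their sign with 1 library left out, with Ctsh 0.459 to 0.722, Ctsk 0.835 to 1.42, Ctsl 0.0133 to 0.875, Ctsd 0.0701 to 0.652, Tpp1 0.289 to 0.499, Gaa 0.0635 to 0.565, Glb1 0.111 to 0.45, Neu1 0.0149 to 0.398, Lipa 0.234 to 0.778, Asah1 -0.428 to -0.163, Psap 0.397 to 0.852, Npc2 -0.294 to -0.164, Grn 0.377 to 1.07, Lamp1 0.0758 to 0.247, Lamp2 -0.543 to -0.174, Cd63 0.0313 to 0.252, Npc1 0.234 to 0.582, Mcoln1 0.117 to 0.698, Ctns 0.381 to 0.786. No paired analysis was possible because the replicate numbers only follow the order of the accessions. Titles gave another grouping, in which 1 IL5-Tg and 1 WT library share each of 2 starts whose meaning the labels do not give. With the start of titles as a block, 52 genes and 0 members were called, and Ctsk was at 0.488.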
